A study of Mus musculus with 2 samples.

Results

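The 42 genes described here are effector genes of the type I interferon response, measured by single-cell RNA sequencing in mediastinal lymph nodes (MedLNs) of mice with allergic asthma. They are 42 of the 31053 genes in the count tables, and all 42 were found there by symbol. The genes were chosen by name, as known interferon targets, at a time when their lower level with butyrate in these same 2 libraries was already known, so every difference between the libraries below is a description and supports nothing. All mice were wild-type, of the strain labelled C57/B6J, received 50 µg ovalbumin (OVA) on days 0 and 7, were challenged from day 14 to day 16 and were killed on day 17. The library without butyrate came from such mice without butyrate supplementation and the library with butyrate from mice supplemented with it, and cells of 4 mice were pooled for each. The methods say that the mice of each experiment were matched for age and give 1 range of ages for all mice of the study, not the age of these mice, and the route by which these mice took butyrate was not found in the labels or the methods. Each condition is therefore 1 pool, nothing separates the effect of butyrate from a difference between the pools, and no test was possible.

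Type I interferons are secreted by infected or alerted cells and bind the receptor Ifnar1/Ifnar2 on nearly every cell type. The receptor activates the kinases Jak1 and Tyk2, and the signal leads transcription factors, Stat2 and Irf9 among them, to a short DNA element, the interferon-stimulated response element (ISRE), in the promoters of target genes. The products sense viral RNA, degrade it, block its translation or trap virus particles, and some damp the response again. Lymph node lymphocytes carry these genes at a low level without infection.

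The library without butyrate kept 8774 cells after filtering and the library with butyrate 8013 cells, with a median of 5069 and 5648 unique molecular identifiers (UMIs) per cell. Lineages were assigned from UMIs of Cd79a, Cd3e, Cd4, Cd8a and Lyz2, none of which is a member. There were 4070 Cd79a+ cells without and 3861 with butyrate, 1041 and 935 Cd3e+Cd4+ cells, 1613 and 1655 Cd3e+Cd8a+ cells, and 35 and 29 Lyz2+ cells. Markers that the assignment did not use fitted these names: Ms4a1 had a UMI in 95.2% and 96.4% of Cd79a+ cells, Cd3d in 98.3% and 98.7% of Cd3e+Cd4+ cells and Cd8b1 in 97.8% and 98.1% of Cd3e+Cd8a+ cells. In the Lyz2+ cells Csf1r had a UMI in 65.7% and 51.7%, and the neutrophil gene S100a8 had 406 UMIs in 11.4% of the cells without and 1309 UMIs in 6.90% of the cells with butyrate, so the Lyz2+ cells are a mixture. The libraries shared 25 cell barcodes, and leaving these cells out moved the sums given below by less than their counting intervals. Levels are given as CPM, in which the UMIs of each lineage and library sum to a common total. Because the 3′ chemistry counts 1 end of each transcript, CPM does not scale with transcript length. A ratio is the log2 of CPM with over CPM without butyrate. A range in parentheses after it is its 95% interval from counting error alone, which holds no error between mice or between cells.

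The ISRE links these genes to the pathway, so the promoter stretches of some members that carry its core are shown first. RefSeq (GRCm38.p6) gave a window of 250 bases before to 50 after the start site for 32 of the 42 members, and the windows were searched on both strands for the core GAAANNGAAA, with overlapping matches counted separately. In the sequences the capitals mark the core; where it lies on the other strand the reverse complement is in capitals. In Isg15 and Bst2 several cores overlap and make 1 longer run of capitals.
Isg15 (chr4:156200840-156200929, minus strand, bases -111 to -22 from the start site): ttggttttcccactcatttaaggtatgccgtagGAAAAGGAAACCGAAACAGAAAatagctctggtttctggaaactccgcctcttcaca
Ifit1 (chr19:34640759-34640848, plus strand, bases -130 to -41 from the start site): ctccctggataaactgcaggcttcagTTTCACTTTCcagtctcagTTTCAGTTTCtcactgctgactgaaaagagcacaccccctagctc
Ifit3 (chr19:34583362-34583451, plus strand, bases -167 to -78 from the start site): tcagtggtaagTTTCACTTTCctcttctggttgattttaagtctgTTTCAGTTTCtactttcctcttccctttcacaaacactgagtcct
Rsad2 (chr12:26456528-26456617, minus strand, bases -165 to -76 from the start site): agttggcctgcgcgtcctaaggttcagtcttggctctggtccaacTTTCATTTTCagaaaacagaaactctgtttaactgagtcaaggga
Oas3 (chr5:120777690-120777779, minus strand, bases -120 to -31 from the start site): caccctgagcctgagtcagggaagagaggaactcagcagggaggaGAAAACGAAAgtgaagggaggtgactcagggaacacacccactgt
Bst2 (chr8:71537552-71537641, minus strand, bases -169 to -80 from the start site): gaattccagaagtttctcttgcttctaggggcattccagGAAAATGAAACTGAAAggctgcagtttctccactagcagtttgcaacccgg
Ddx60 (chr8:61928023-61928086, plus strand, bases -64 to -1 from the start site): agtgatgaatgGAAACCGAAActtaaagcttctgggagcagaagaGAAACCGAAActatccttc
These 7 are shown because they come from 5 of the 8 roles described below and because their ratios differ, from low in Rsad2 and Ifit3 to near 0 for Ddx60 in Cd79a+ cells. The stretch of Ifit3 is the same in all 90 bases as that of its neighbour Ifit3b, and the stretches of Trim30a and Trim30d were the same in 80 of 81 bases.

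The core was in the window of 16 of the 32 members, or 50% (exact binomial interval 31.9% to 68.1%), and in 1063 of 26993 other genes, or 3.94%. The longer form GAAANNGAAACT, each match of which is also a match of the core, was in 10 members (31.2%) and in 0.267% of the other genes. The gamma-activated sequence (GAS), searched as TTCNNNGAA on both strands, was in 7 members (21.9%) and in 9.54% of the other genes. Of the 25 matches of the core in member windows, 20 began before the start site and 12 of these within 100 bases of it. The members were chosen as interferon targets, so the larger share describes that choice, and 16 of the 32 had no match in the window. No match says only that these letters are not within the window.

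Some members are neighbours in the genome. All 42 were placed on 15 chromosomes, and 18 of them lie in 7 groups of neighbours that are at most 500 kb apart. The largest is the Ifit group on chromosome 19 (chr19:34550694-34650009, GRCm38), which holds Ifit2, Ifit3, Ifit3b and Ifit1. The others are Oas2, Oas3 and Oas1a, then Oasl2 and Oasl1, then Parp14, Dtx3l and Parp9, then Rsad2 and Cmpk2, then Phf11b and Phf11d, and last Trim30a and Trim30d. Some members, neighbours among them, have transcript ends that are partly shared with other genes. In the last 500 bases of its transcripts, Oas1a shared 51.2% of its 60-base words with other genes, Phf11b 36.7%, Herc6 23.7%, Phf11d 22.3%, Trim30a 19.4%, Trim30d 16.2% and Ifit3 12.9%. Oas1a shared its words with Oas1g and Herc6 with Gm45193, neither of which is a member. Counts of these 7 genes are uncertain to that extent, because reads in shared stretches cannot be assigned to 1 copy.

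**Figure D1:**
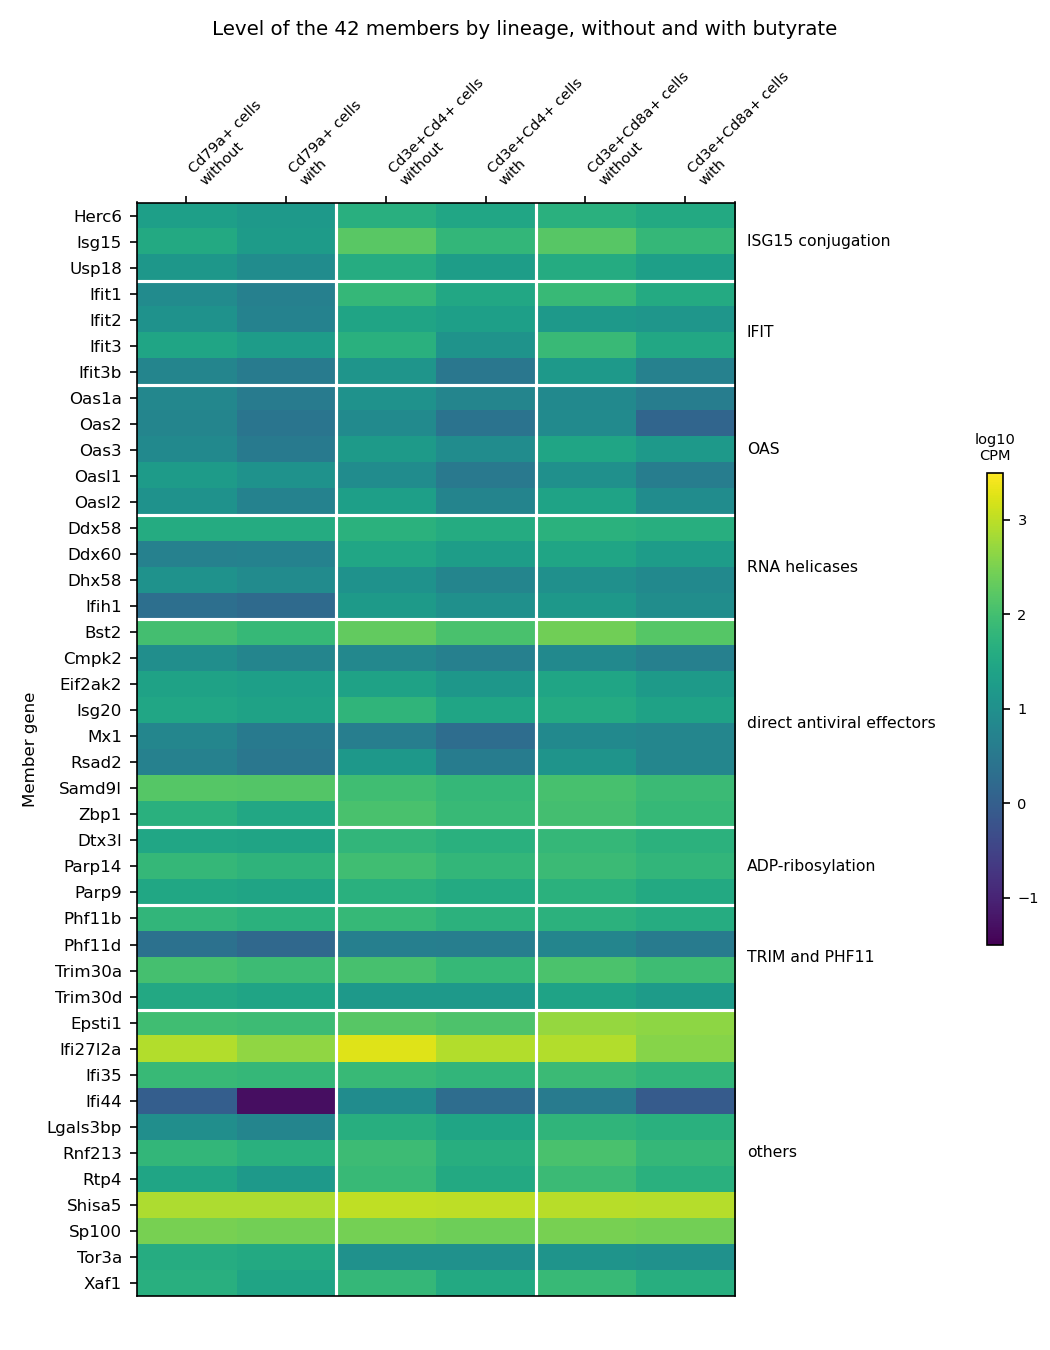
Level of each member (rows, grouped by role) in Cd79a+, Cd3e+Cd4+ and Cd3e+Cd8a+ cells without and with butyrate (columns), as log10 CPM by colour. Ifi27l2a and Shisa5 are bright rows in all columns, Epsti1 is bright in Cd3e+Cd8a+ cells, and Ifi44 is the darkest row in Cd79a+ cells.

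Members spanned a wide range of levels. Shisa5, which codes for a protein linked to cell death signalling, stood at 886 CPM without and 854 CPM with butyrate over all cells. Ifi27l2a, a small interferon-induced membrane protein gene, stood at 1046 CPM without and 521 CPM with butyrate. At the low end Ifi44 had 3.98 CPM without and 0.847 CPM with butyrate, from 207 and 44 UMIs. Ifi27l2a and Shisa5 together made up a large part of all member UMIs: without butyrate they held 25.3% and 21.4%, and with butyrate 17.7% and 28.9%. Sums over the members therefore lean on these 2 genes, and the sums of all cells and of the 4 lineages are also given without them.

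The lymphoid lineage with the highest level was not the same for all members. Among the 3 lymphoid lineages without butyrate, 19 members were highest in Cd3e+Cd8a+ cells, 17 in Cd3e+Cd4+ cells and 6 in Cd79a+ cells. With butyrate these counts were 20, 13 and 9. T cells form more of the 3 lineages than B cells do. The order of the 3 lineages was the same in both libraries for 24 of the 42. The interval of the log2 ratio of Cd3e+Cd4+ over Cd79a+ CPM lay above 0 in both libraries for 22 members and below 0 in both for 5. The median of this log2 ratio over the members was 0.75 without and 0.35 with butyrate. Shares of all genes are not given for these counts, so nothing is read from them. Free RNA, which droplets carry from broken cells, was small beside these levels: T-cell genes Cd3d, Cd3g and Trac reached at most 1.61% of their level over all cells in Cd79a+ cells without butyrate and 1.89% with it, whereas the member with the lowest such share, Ifit1 without and Ifi44 with butyrate, stood at 17.4% and 5.62%.

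The lineage differences were large for some members. Ifit1, which binds viral RNA lacking the host cap, stood at 8.16 CPM without and 4.67 CPM with butyrate in Cd79a+ cells, at 66.6 CPM without and 31.6 CPM with butyrate in Cd3e+Cd4+ cells and at 74.4 CPM without and 36.1 CPM with butyrate in Cd3e+Cd8a+ cells. The log2 ratio of Cd3e+Cd4+ over Cd79a+ cells was 3.03 (2.77 to 3.29) without and 2.76 (2.41 to 3.12) with butyrate. Ifih1, the RNA sensor MDA5, and Ddx60, a helicase that aids RNA sensing, were also higher in Cd3e+Cd4+ cells, by log2 ratios of 3.00 (2.49 to 3.54) and 2.49 (2.14 to 2.85) without butyrate. Lgals3bp, a secreted glycoprotein gene, differed by 2.21 (1.94 to 2.47) without and 2.22 (1.88 to 2.56) with butyrate. Epsti1 set the Cd3e+Cd8a+ cells apart: it stood at 501 CPM without and 443 CPM with butyrate there, at 157 CPM without and 129 CPM with butyrate in Cd3e+Cd4+ cells and at 93.4 CPM without and 86.5 CPM with butyrate in Cd79a+ cells. Ifi27l2a was highest in Cd3e+Cd4+ cells, with 1790.2 CPM without and 849.6 CPM with butyrate.

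Some members were higher in Cd79a+ cells. Samd9l, which restrains virus translation and cell growth, stood at 153 CPM without and 143 CPM with butyrate in Cd79a+ cells and at 92.0 CPM without and 68.3 CPM with butyrate in Cd3e+Cd4+ cells. Tor3a, a gene of the endoplasmic reticulum, stood at 39.2 CPM without and 33.8 CPM with butyrate and at 10.5 CPM without and 10.6 CPM with butyrate in the same order. Oasl1, a 2′-5′-oligoadenylate synthetase-like gene, stood at 17.5 CPM without and 11.1 CPM with butyrate and at 8.55 CPM without and 3.35 CPM with butyrate. Neighbouring members can thus differ in lineage: the next gene to Oasl1, Oasl2, was higher in T cells, at 11.3 CPM without and 5.15 CPM with butyrate in Cd79a+ and 25.3 CPM without and 8.5 CPM with butyrate in Cd3e+Cd8a+ cells. For Sp100, a nuclear body protein gene, the 3 lymphoid lineages hardly differed, from 280 CPM to 300.2 CPM without butyrate.

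With butyrate most members were lower in each lymphoid lineage. Over all cells the log2 ratio of all 42 was below 0 and that of 26 was at or below -0.5, a value reached by 3.91% of the 12105 genes with at least 50 UMIs over both libraries, and 0 of 42 were at or above 0.5 (2.8% of all genes). The genes were chosen with this contrast in view, so nothing is read from the share. The median ratio of the members was -0.66, against 0.026 for all such genes, and the summed members stood at 4135 CPM without and 2949 CPM with butyrate, a ratio of -0.49 (-0.50 to -0.48), or -0.48 (-0.50 to -0.47) without Ifi27l2a and Shisa5. The range ran from -2.23 for Ifi44 to -0.054 for Shisa5.

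In Cd79a+ cells 41 of the 42 members had at least 50 UMIs, 21 of these were at or below -0.5 (all genes: 3.48%) and 0 at or above 0.5 (1.75%). The median was -0.51 (all genes 0.032), and the sum of all members stood at 3203 CPM without and 2515 CPM with butyrate, a ratio of -0.35 (-0.37 to -0.33). Without Ifi27l2a and Shisa5 the ratio of the sum was -0.31 (-0.34 to -0.29). In Cd3e+Cd4+ cells 41 of the 42 members had at least 50 UMIs, 27 of these were at or below -0.5 (all genes: 4.65%) and 0 at or above 0.5 (2.72%). The median was -0.73 (over all genes -0.0063), and the sum of all members stood at 5121 CPM without and 3316 CPM with butyrate, a ratio of -0.63 (-0.65 to -0.60). Without Ifi27l2a and Shisa5 the ratio of the sum was -0.63 (-0.67 to -0.60). In Cd3e+Cd8a+ cells 42 of the 42 members had at least 50 UMIs, 26 of these were at or below -0.5 (all genes: 2.85%) and 0 at or above 0.5 (2.26%). The median was -0.64 (over all genes 0.002), and the sum of all members stood at 4571 CPM without and 3240.2 CPM with butyrate, a ratio of -0.50 (-0.51 to -0.48). Without Ifi27l2a and Shisa5 the ratio of the sum was -0.50 (-0.53 to -0.48). Of the 3 lymphoid lineages the Cd3e+Cd4+ cells thus had the lowest ratios in these pools and the Cd79a+ cells the highest. The summed intervals did not overlap, but they hold counting error only and no error between mice or cells. They therefore do not measure a difference between lineages beyond these pools. The counts depend on low members: with a pseudocount of 10 CPM they were 5 in Cd79a+ and 14 in Cd3e+Cd8a+ cells, and with at least 200 UMIs 16 in Cd3e+Cd4+ cells. The share of all genes is not given for these settings, so these counts cannot be set beside the shares above.

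**Figure D2:**
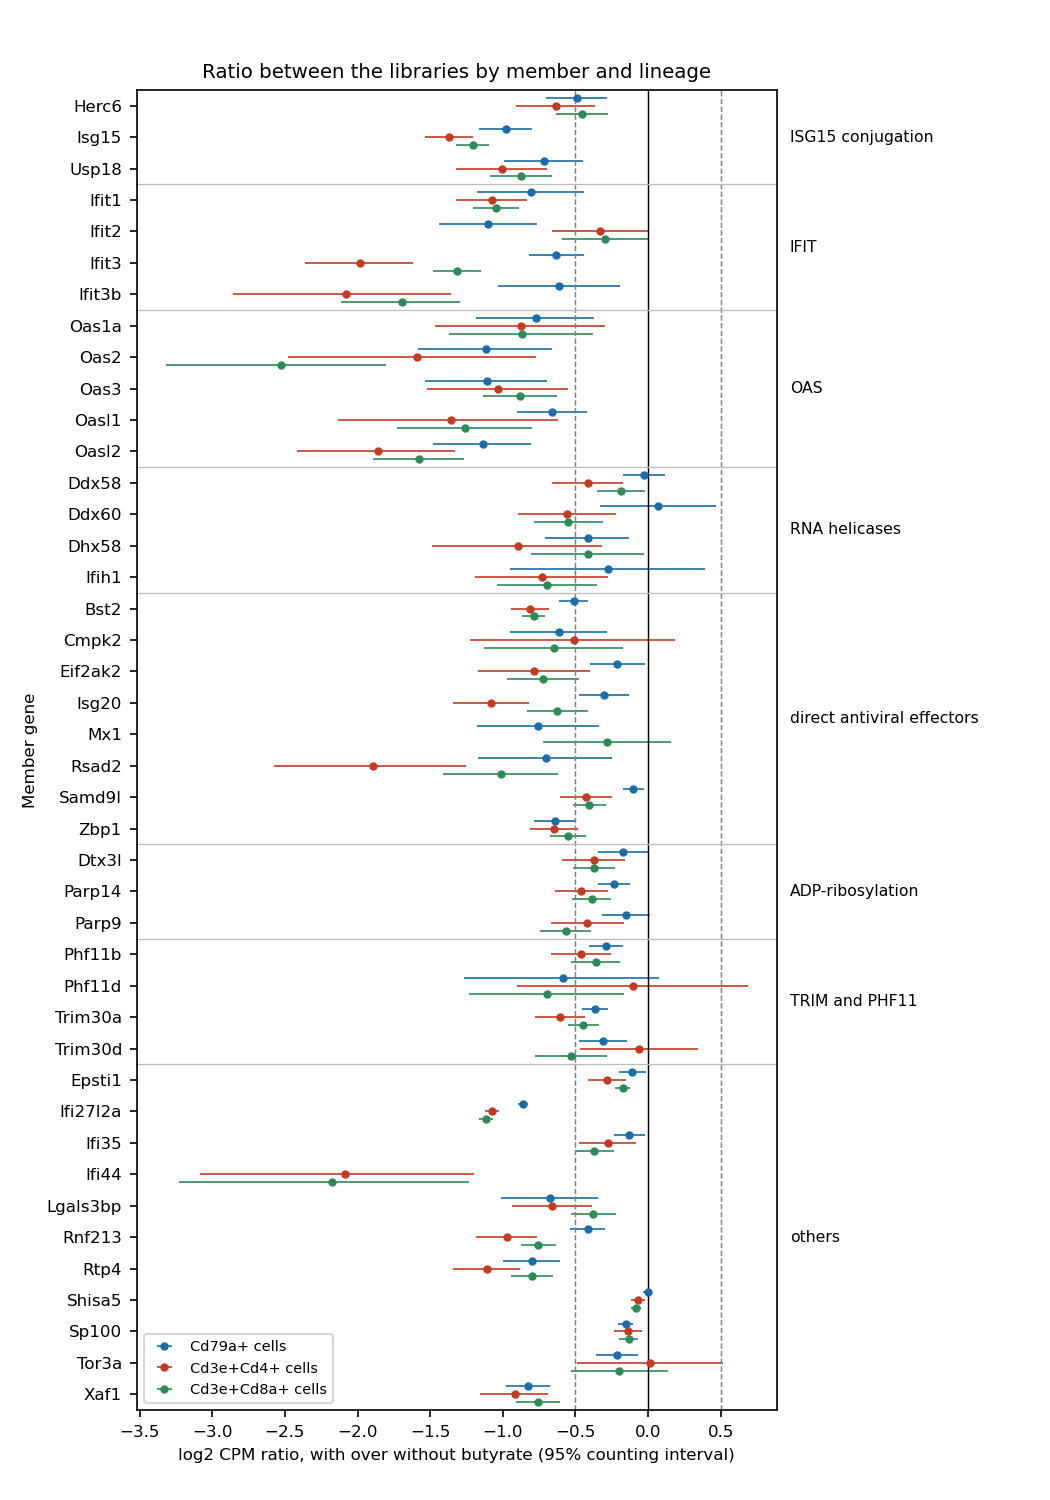
The log2 CPM ratio with over without butyrate (x axis) of each member (rows, by role) in 3 lineages, with 95% counting intervals as bars and dashed lines at -0.5 and 0.5. Members under 50 UMIs in a lineage are not drawn. Most members of the IFIT and OAS families, but not Ifit2, lie far to the left in T cells, and Shisa5, Sp100 and Epsti1 lie close to 0.

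The ISG15 system was among the groups with the lowest ratios. Isg15 codes for a ubiquitin-like protein that is joined to other proteins, Herc6 for the ligase that joins it in mice, and Usp18 for the protease that removes it and that also blocks the interferon receptor. Isg15 stood at 169 CPM without and 65.4 CPM with butyrate in Cd3e+Cd4+ cells, at 157 CPM without and 68.0 CPM with butyrate in Cd3e+Cd8a+ cells and at 34.6 CPM without and 17.5 CPM with butyrate in Cd79a+ cells. The ratios were -1.37 (-1.53 to -1.21), -1.21 (-1.32 to -1.09) and -0.98 (-1.16 to -0.80). Isg15 was detected in fewer cells too: with each cell thinned to 2000 UMIs, 17.9% of Cd3e+Cd4+ cells without and 9.56% with butyrate had an Isg15 UMI (33.5% and 19.9% unthinned, while the B-cell gene Ms4a1 had a UMI in 2.02% and 2.35% of the same cells). Usp18 stood at 38.8 CPM without and 19.3 CPM with butyrate in Cd3e+Cd4+ cells, a ratio of -1.01 (-1.33 to -0.69), so the brake was lower along with the effector. Herc6 had ratios between -0.63 and -0.46 in the 3 lymphoid lineages.

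The IFIT genes code for proteins that bind foreign RNA and block its translation. Summed, the 4 genes stood at 152 CPM without and 67.5 CPM with butyrate in Cd3e+Cd4+ cells, a ratio of -1.17 (-1.34 to -1.01), at -1.11 (-1.21 to -1.01) in Cd3e+Cd8a+ and at -0.74 (-0.88 to -0.60) in Cd79a+ cells. Ifit3 had 303 UMIs without and 77 with butyrate in Cd3e+Cd4+ cells, a ratio of -1.98 (-2.36 to -1.62), and 1 cell held 23.4% of the latter UMIs. In Cd3e+Cd8a+ cells Ifit3 stood at 78.0 CPM without and 31.4 CPM with butyrate, a ratio of -1.31 (-1.48 to -1.15), and in Cd79a+ cells at 27.8 CPM without and 18.0 CPM with butyrate, a ratio of -0.63 (-0.82 to -0.44). Its near copy Ifit3b followed it, with -2.08 (-2.86 to -1.36), -1.70 (-2.12 to -1.29) and -0.61 (-1.03 to -0.20). Ifit2 went the other way between lineages. It stood at 11.2 CPM without and 5.24 CPM with butyrate in Cd79a+ cells, a ratio of -1.10 (-1.44 to -0.77), but at 26.6 CPM without and 21.1 CPM with butyrate in Cd3e+Cd4+ cells and 16.3 CPM without and 13.2 CPM with butyrate in Cd3e+Cd8a+ cells, ratios of -0.33 (-0.66 to -0.00033) and -0.30 (-0.59 to 0.0014). The ratio in Cd3e+Cd4+ cells was higher than in Cd79a+ cells by 0.77 (0.31 to 1.23), and no other member was past 0.5 in this direction. Ifit1 had like ratios in both T lineages, -1.07 (-1.32 to -0.83) and -1.04 (-1.20 to -0.89).

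The OAS genes make the 2′-5′-oligoadenylates that switch on RNase L, and the OAS-like genes are their relatives. All 5 were at or below -0.5 in each lymphoid lineage, and their sum had ratios of -1.32 (-1.59 to -1.07) in Cd3e+Cd4+, -1.24 (-1.40 to -1.08) in Cd3e+Cd8a+ and -0.89 (-1.05 to -0.74) in Cd79a+ cells. They were low in level. Oas2 stood at 7.75 CPM without and 1.35 CPM with butyrate in Cd3e+Cd8a+ cells, from 93 and 19 UMIs, the lowest ratio of a member there, -2.53 (-3.32 to -1.80). Oasl2 stood at 20.9 CPM without and 5.78 CPM with butyrate in Cd3e+Cd4+ cells, a ratio of -1.86 (-2.42 to -1.33), and had the lowest ratio of a member with 50 UMIs in Cd79a+ cells, -1.14 (-1.48 to -0.80). Oas3 had ratios of -1.11 (-1.53 to -0.70), -1.03 (-1.53 to -0.55) and -0.88 (-1.14 to -0.63) in Cd79a+, Cd3e+Cd4+ and Cd3e+Cd8a+ cells. Oas1a, with 8.63 CPM without and 4.31 CPM with butyrate over all cells, shares its transcript end with Oas1g.

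The RNA helicases that sense viral RNA had the summed ratio nearest to 0 of the role groups over all cells. The group holds Ddx58 (RIG-I), Ifih1 (MDA5), Dhx58 (LGP2) and Ddx60, and its sum over all cells had a ratio of -0.32 (-0.39 to -0.26). In Cd79a+ cells the sum stood at 56.1 CPM without and 52.3 CPM with butyrate, a ratio of -0.10 (-0.22 to 0.02) whose interval spans 0. In Cd3e+Cd4+ cells it was -0.55 (-0.72 to -0.38) and in Cd3e+Cd8a+ cells -0.37 (-0.49 to -0.25). Ddx60 had 107 UMIs without and 111 with butyrate in Cd79a+ cells, a ratio of 0.067 (-0.33 to 0.46), the highest of any member there. Its difference between Cd3e+Cd4+ and Cd79a+ cells was -0.62 (-1.13 to -0.12). Ddx58 stood at 37.8 CPM without and 37.0 CPM with butyrate in Cd79a+ cells, a ratio of -0.031 (-0.18 to 0.11). Dhx58 had -0.42 (-0.71 to -0.13) in Cd79a+ and -0.89 (-1.49 to -0.32) in Cd3e+Cd4+ cells. Ifih1 had too few UMIs in Cd79a+ cells to narrow its interval (-0.95 to 0.39).

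The group of direct antiviral effectors was mixed. Bst2, the tetherin that holds virus particles at the cell surface, stood at 258 CPM without and 149 CPM with butyrate in Cd3e+Cd8a+ cells and 201 CPM without and 114 CPM with butyrate in Cd3e+Cd4+ cells, ratios of -0.79 (-0.87 to -0.71) and -0.81 (-0.94 to -0.68), and at 99.5 CPM without and 69.7 CPM with butyrate in Cd79a+ cells, -0.51 (-0.61 to -0.42). Rsad2, which codes for viperin, had 96 and 26 UMIs in Cd3e+Cd4+ cells, a ratio of -1.89 (-2.58 to -1.25). Its neighbour Cmpk2, a nucleotide kinase gene, had a ratio of -0.62 (-0.95 to -0.29) in Cd79a+ cells and of -0.51 (-1.22 to 0.18) in Cd3e+Cd4+ cells, where it had 44 and 31 UMIs. Isg20, an RNA exonuclease gene, had its lowest ratio of the 3 lymphoid lineages in Cd3e+Cd4+ cells. It stood at 58.2 CPM without and 27.5 CPM with butyrate there, a ratio of -1.08 (-1.34 to -0.82). In Cd79a+ cells it stood at 29.4 CPM without and 23.8 CPM with butyrate, -0.31 (-0.48 to -0.13). The Cd79a+ cells differed among themselves. Those with no Ighd UMI (Ighd-) had 76 and 21 Isg20 UMIs, a ratio of -1.44 (-2.21 to -0.73). Those with an Ighd UMI (Ighd+) had -0.21 (-0.39 to -0.026). Eif2ak2, the kinase PKR, had ratios of -0.78 (-1.17 to -0.40), -0.72 (-0.97 to -0.48) and -0.21 (-0.40 to -0.024) in Cd3e+Cd4+, Cd3e+Cd8a+ and Cd79a+ cells. Zbp1, a sensor of Z-form nucleic acid, was nearly even across lineages, between -0.65 and -0.55. Samd9l stood close to 0 in Cd79a+ cells, -0.10 (-0.18 to -0.031), and at -0.43 (-0.61 to -0.25) in Cd3e+Cd4+ cells. Mx1, a dynamin-like antiviral protein gene that is broken in common laboratory mouse strains, had 91 and 88 UMIs in Cd3e+Cd8a+ cells, -0.28 (-0.72 to 0.16), and 1 cell held 13.6% of the latter.

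The ADP-ribosylation genes and the TRIM and PHF11 genes had ratios between these extremes and 0. Parp9 and Dtx3l code for 2 parts of a complex that modifies histones, and Parp14 for an ADP-ribosyltransferase of the same locus. The sum of the 3 had ratios of -0.20 (-0.28 to -0.12) in Cd79a+, -0.42 (-0.54 to -0.30) in Cd3e+Cd4+ and -0.43 (-0.51 to -0.34) in Cd3e+Cd8a+ cells. Parp14 stood at 90.7 CPM without and 66.0 CPM with butyrate in Cd3e+Cd4+ cells. Trim30a, which damps inflammatory signalling, stood at 108 CPM without and 83.8 CPM with butyrate in Cd79a+ cells, a ratio of -0.37 (-0.46 to -0.28), and at 109 CPM without and 71.6 CPM with butyrate in Cd3e+Cd4+ cells, -0.60 (-0.78 to -0.43). Its near copy Trim30d had 105 and 101 UMIs in Cd3e+Cd4+ cells, -0.062 (-0.47 to 0.35). Phf11b had ratios between -0.46 and -0.29 in the lymphoid lineages, and Phf11d, with 50 and 33 UMIs in Cd79a+ cells, was too low to place (-1.27 to 0.078).

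The other 11 members held both ends of the range. Ifi27l2a was lower in all lymphoid lineages, with 836 CPM without and 459.7 CPM with butyrate in Cd79a+ cells and 847 CPM without and 391 CPM with butyrate in Cd3e+Cd8a+ cells. Its ratios were -0.86 (-0.90 to -0.83) in Cd79a+, -1.08 (-1.12 to -1.03) in Cd3e+Cd4+ and -1.12 (-1.16 to -1.07) in Cd3e+Cd8a+ cells. In cells thinned to 2000 UMIs it was detected in 61.4% of Cd79a+ cells without and 42.4% with butyrate (77.0% and 61.3% unthinned), against 4.05% and 5.02% unthinned for the T-cell gene Cd3d, at median depths of 4384.5 and 4608 UMIs. Shisa5, at a level as high, hardly differed: 779 CPM without and 778 CPM with butyrate in Cd79a+ cells, a ratio of -0.0016 (-0.033 to 0.03), and -0.071 (-0.12 to -0.022) and -0.083 (-0.12 to -0.046) in the T lineages. Sp100 and Epsti1 were also near 0, with -0.13 (-0.20 to -0.067) and -0.17 (-0.23 to -0.12) in Cd3e+Cd8a+ cells. Ifi44, an interferon-induced protein gene of unsettled role, had 55 and 13 UMIs in Cd3e+Cd4+ cells, -2.09 (-3.08 to -1.20), and 46 and 12 in Cd3e+Cd8a+ cells, -2.17 (-3.23 to -1.23). In Cd79a+ cells it had 21 UMIs without and 1 with butyrate, a ratio of -4.38 (-9.75 to -1.74).

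Xaf1, a cell death gene, had ratios from -0.92 to -0.76 in the 3 lymphoid lineages. Rtp4, which codes for a receptor chaperone, stood at 73.9 CPM without and 34.2 CPM with butyrate in Cd3e+Cd4+ cells, -1.11 (-1.35 to -0.88), and had ratios of -0.80 and -0.80 in Cd3e+Cd8a+ and Cd79a+ cells. Rnf213, a large ubiquitin ligase gene, stood at 85.4 CPM without and 43.5 CPM with butyrate in Cd3e+Cd4+ cells, -0.97 (-1.18 to -0.77), and at -0.42 (-0.53 to -0.30) in Cd79a+ cells. Ifi35 and Lgals3bp had ratios in Cd3e+Cd4+ cells of -0.28 (-0.47 to -0.084) and -0.66 (-0.94 to -0.39). Tor3a had 69 and 70 UMIs in Cd3e+Cd4+ cells, 0.014 (-0.49 to 0.52), the highest ratio of a member in that lineage.

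The ratios were compared between lineages. The members were chosen with their lower level in these libraries known, so these differences are a description too. The difference of the ratio, Cd3e+Cd4+ minus Cd79a+ cells, was below 0 for 32 of the 40 members with at least 50 UMIs in both, at or below -0.5 for 9 (4.63% of the 8640 genes so compared) and at or above 0.5 for 1 (3.28%), with a median of -0.25 against -0.032 for all genes. For Cd3e+Cd8a+ minus Cd79a+ cells it was below 0 for 31 of 41, at or below -0.5 for 6 (3.37% of 9090 genes) and at or above 0.5 for 1 (2.93%). The median was -0.16 against -0.030 for all genes. In both contrasts the median of all genes was itself below 0, and the share of all genes below 0 is not given. The differences with the lowest values were those of Ifit3b, -1.47 (-2.28 to -0.65), and Ifit3, -1.35 (-1.76 to -0.94), in Cd3e+Cd4+ cells and of Oas2, -1.41 (-2.25 to -0.57), in Cd3e+Cd8a+ cells. In Cd3e+Cd4+ cells the difference was -0.77 (-1.08 to -0.47) for Isg20 and -0.56 (-0.79 to -0.32) for Rnf213. Between the 2 T lineages, Cd3e+Cd8a+ minus Cd3e+Cd4+ cells, the median difference was 0.071 over 41 members, against 0.0025 for all genes so compared. The contrasts with Cd79a+ cells share those cells, and all contrasts come from the same 2 pools, so these values were not tested.

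The lower level was found at the median cell of each lymphoid lineage, and its size differed between quantiles of the cells in no order shared by the lineages. Cells were compared after each was thinned to 2000 UMIs (101 cells of the first library and 58 of the second were shallower and were dropped). A Cd3e+Cd4+ cell held a mean of 10.5 member UMIs without and 6.80 with butyrate, a Cd3e+Cd8a+ cell 9.47 and 6.51, and a Cd79a+ cell 6.78 and 5.27. The medians were 8 and 6, 8 and 5, and 5 and 4. In Cd3e+Cd4+ cells the log2 ratio of member UMIs per cell was -0.32 at the lower quartile, -0.42 at the median and -0.70 at the upper quartile. In Cd3e+Cd8a+ cells these values were -0.32, -0.68 and -0.58, and in Cd79a+ cells 0, -0.32 and -0.42. At the 10th percentile the ratio was -0.58 in Cd3e+Cd4+, -0.58 in Cd3e+Cd8a+ and -1.0 in Cd79a+ cells. At the 90th percentile it was -0.81, -0.71 and -0.38 in the same order of lineages, and at the 95th -0.86, -0.62 and -0.39. In Cd3e+Cd4+ cells the ratio was thus lower at each step from the lower quartile to the 95th percentile. The other lineages had no such order. The lower quantiles are small whole counts, where a step of a single UMI sets the ratio, and the differences between quantiles were not tested. Nearly every cell had a member UMI in both libraries: 99.1% and 99.4% of Cd3e+Cd4+ cells did. Shisa5 alone had a UMI in 85.1% and 83.6% of these cells. Cells with at least 10 member UMIs made up 39.2% (36.2% to 42.2%, exact binomial) of the Cd3e+Cd4+ cells without and 17.9% (15.5% to 20.6%) with butyrate. In Cd3e+Cd8a+ cells these shares were 35.4% and 15.1%, and in Cd79a+ cells 19.6% and 11.1%.

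**Figure D3:**
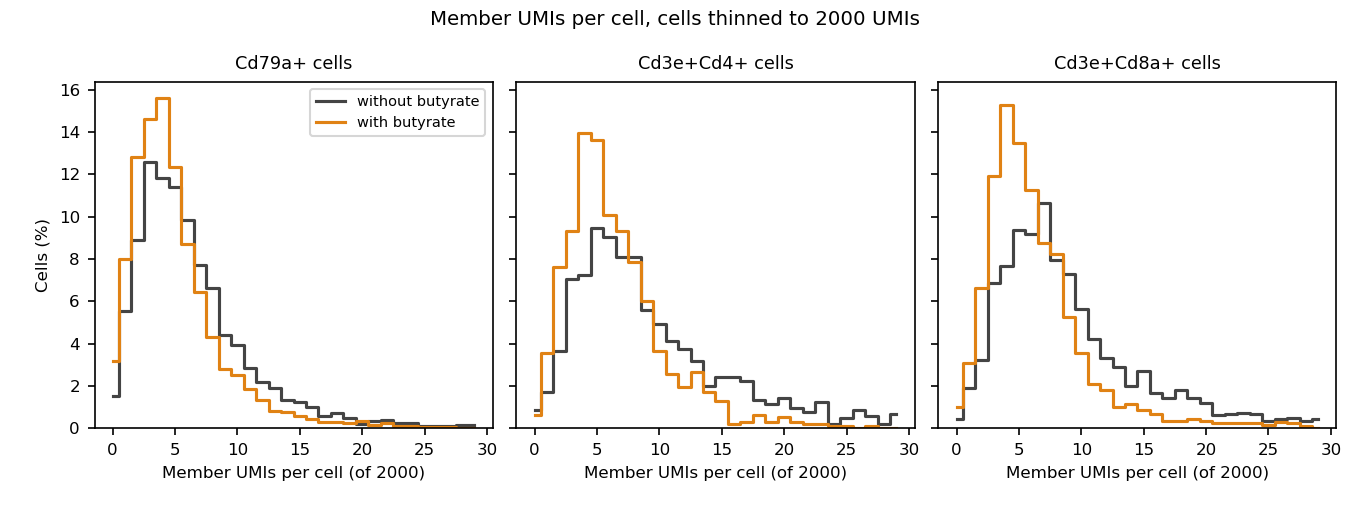
Share of cells (y axis, %) by the number of member UMIs among 2000 UMIs (x axis) in 3 lineages, without (grey) and with butyrate (orange). In each lineage the curve with butyrate is shifted to fewer member UMIs and has a thinner upper tail. Cells with 30 or more are not drawn and make up at most 4.15% of a lineage.

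Members varied together from cell to cell. For each member, Pearson's r was computed over the thinned cells of a lineage between the log of its UMIs plus 1 and the log of the summed other members plus 1. The median r was 0.246 without and 0.0999 with butyrate in Cd3e+Cd4+ cells, 0.186 and 0.147 in Cd3e+Cd8a+ cells, and 0.190 and 0.160 in Cd79a+ cells, over the 16 to 27 members with UMIs in at least 5% of cells. The members differ between the libraries (26 without and 20 with butyrate in Cd3e+Cd4+ cells), and the medians move with depth, unthinned to 0.321 and 0.198 in Cd3e+Cd4+ and to 0.331 and 0.279 in Cd3e+Cd8a+ cells, so they are not compared between libraries. The other genes with UMIs in at least 5% of cells had medians of r with the summed members between -0.00116 and 0.0104. They were not matched to the members in how often they were detected. These r describe sparse counts of cells from 1 pool each, which share library and lineage, and are weak for most members.

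Isg15 had the highest mean r with the other members over the 6 sets of cells, 0.339 (range 0.209 to 0.469). Ifit3 came next with 0.323 (range 0.242 to 0.393), then Ifi27l2a with 0.315 (range 0.240 to 0.386) and Ifit1 with 0.275 (range 0.164 to 0.393). The order differed by lineage: in Cd79a+ cells Isg15 (0.285 without and 0.209 with butyrate) lay below Ifi27l2a (0.336 and 0.288) and Ifit3 (0.321 and 0.301). These genes had UMIs in unlike shares of those cells. Isg15 was in 4.78% without and 2.91% with butyrate, Ifi27l2a in 61.4% and 42.4%, and Ifit3 in 4.16% and 2.16%. Phf11d had the lowest mean, 0.0470 (range -0.0269 to 0.105), and Ifi44, Tor3a and Oas1a also lay below 0.1. The means include sets in which a member had UMIs in under 5% of cells. Phf11d had UMIs in at most 1.36% of the cells of a set, Ifi44 in at most 1.54% and Oas1a in at most 2.12%. Ifi44 had none in Cd79a+ cells with butyrate, and its mean leaves that set out. A low r of such members cannot be told apart from low detection. Among pairs, Isg15 and Ifit3 had a mean r of 0.372, Ifit1 and Ifit3 0.363 and Isg15 and Ifit1 0.322. Ifit2 and Ifit3 had a higher r in Cd79a+ cells, 0.341 and 0.457 without and with butyrate, than in Cd3e+Cd8a+ cells, 0.120 and 0.0196. Ifit2 had UMIs in only 1.71% and 0.935% of the Cd79a+ cells and in 3.23% and 2.54% of the Cd3e+Cd8a+ cells, so few cells set these r. Averaged over the 6 sets, Isg15, Ifit3, Ifi27l2a and Ifit1 were thus the first 4 members, and Bst2, Usp18 and Rtp4 came after them.

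**Figure D4:**
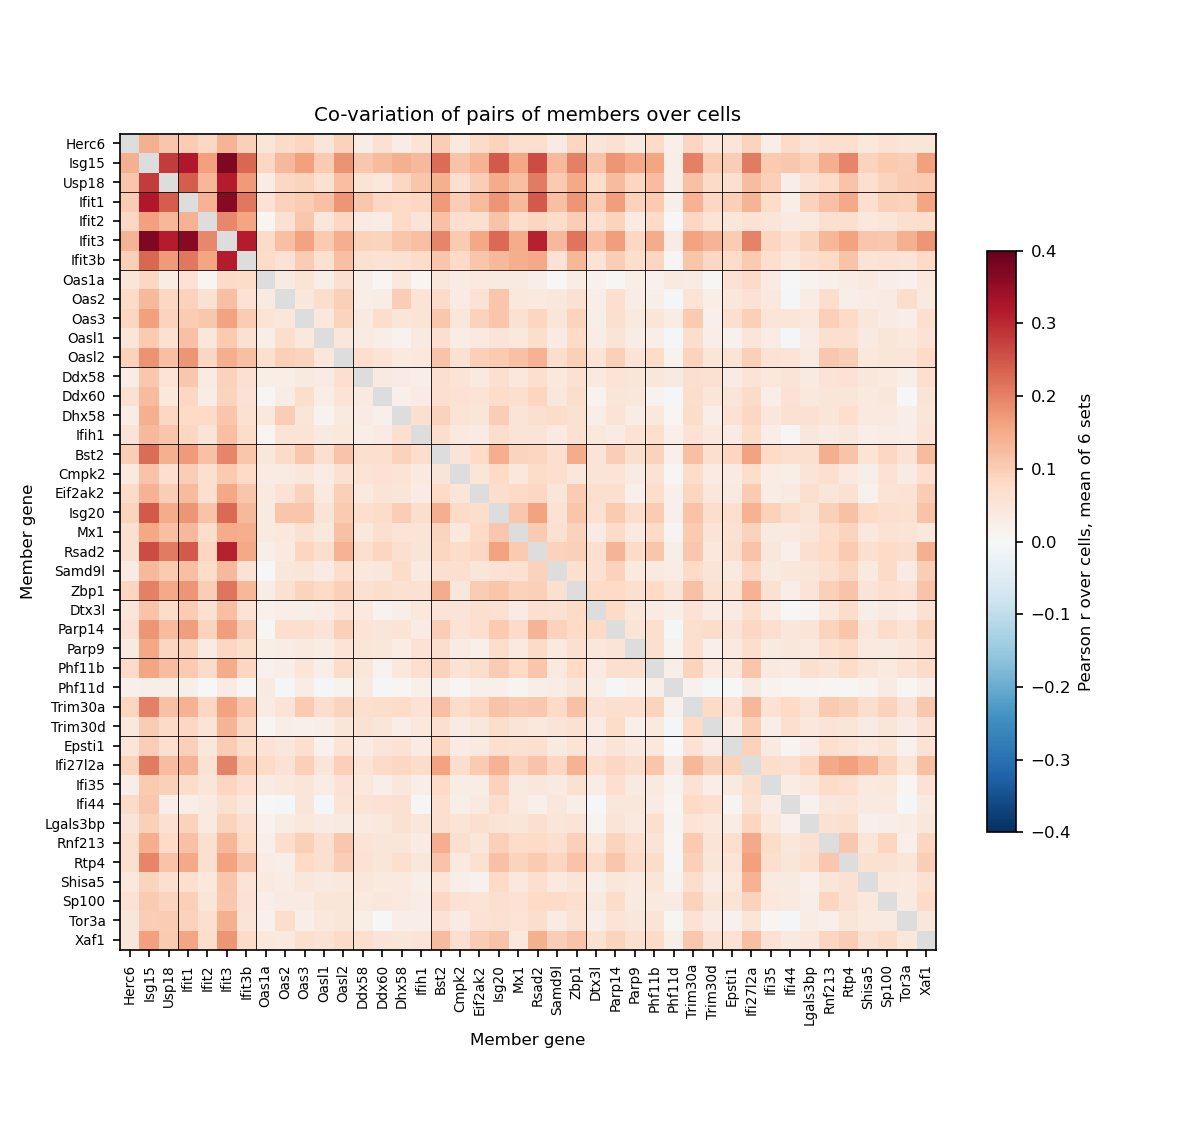
Pearson r over cells of each pair of members (rows and columns, by role), as the mean of the 6 sets of thinned cells, from blue (-0.4) to red (0.4). The reddest block joins Isg15, Usp18, Ifit1, Ifit3 and Rsad2, and the row of Phf11d is near white.

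The non-members most like the members were found by their mean r with the summed members over the same 6 sets, among 3028 other genes with UMIs in at least 5% of the cells of each set. Among the first 10 were Slfn5 (0.252), Ifi203 (0.247), Mndal (0.222), Ifi209 (0.215), Ifi206 (0.209), Ifi213 (0.208), Ly6a (0.208), Samhd1 (0.2) and Ly6e (0.170). Their ratios between the libraries were mostly lower as well: Ifi213 had -0.80, -0.96 and -0.70 in Cd79a+, Cd3e+Cd4+ and Cd3e+Cd8a+ cells, Slfn5 -0.63, -0.67 and -0.55, and Ly6a -0.29, -0.83 and -1.17. Ly6e had 0.058, -0.10 and -0.15. At the other end stood Npm1 (-0.150), a nucleolar protein gene.

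The other genes of the pathway were described from lists by role. Of 21 interferon genes, only Ifng, the type II interferon, reached 50 UMIs over both libraries. It had 145 UMIs without and 689 with butyrate over all cells, but 1 cell outside the lineages held 442 of the latter. In Cd3e+Cd8a+ cells Ifng had 70 UMIs in 38 cells without and 125 UMIs in 43 cells with butyrate, a ratio of 0.60 (0.17 to 1.04). All 21 together had 153 and 695 UMIs, of which Ifng held 145 and 689, so the level of the other interferon genes could not be compared at this depth.

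Among the 13 receptor, signalling and transcription factor genes, 1 was at or below -0.5 in Cd79a+ cells, 5 in Cd3e+Cd4+ cells and 2 of the 12 with 50 UMIs in Cd3e+Cd8a+ cells, with medians of -0.014, -0.41 and -0.17, and none was at or above 0.5. Irf7, the factor that amplifies interferon production, was the lowest in each: it stood at 85.4 CPM without and 37.3 CPM with butyrate in Cd3e+Cd8a+ cells, a ratio of -1.19 (-1.35 to -1.04), and had -0.94 (-1.17 to -0.70) in Cd3e+Cd4+ and -0.73 (-0.90 to -0.57) in Cd79a+ cells. Stat2 and Irf9 are parts of the complex that binds the ISRE. Irf9 had ratios of -0.34 (-0.45 to -0.22), -0.54 (-0.74 to -0.34) and -0.46 (-0.62 to -0.30) in Cd79a+, Cd3e+Cd4+ and Cd3e+Cd8a+ cells. Stat2 differed by lineage: it stood at 30.3 CPM without and 30.8 CPM with butyrate in Cd79a+ cells, 0.023 (-0.14 to 0.18), but at 22.8 CPM without and 12.4 CPM with butyrate in Cd3e+Cd8a+ cells, -0.88 (-1.16 to -0.60), and had -0.70 (-1.10 to -0.32) in Cd3e+Cd4+ cells. The receptor genes Ifnar1 and Ifnar2 and the kinase genes Jak1 and Tyk2 had ratios between -0.19 and 0.11 in these lineages.

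Genes upstream of interferon and the listed negative regulators, among which Usp18 was not counted, had medians nearer 0 than the members. The 12 sensing genes with 50 UMIs in Cd79a+ cells had a median of 0.064, with 0 at or below -0.5, and the 9 in Cd3e+Cd4+ cells -0.094, with 1, the DNA sensor gene Mb21d1, at -0.77 (-1.35 to -0.21). The 8 negative regulators with 50 UMIs had medians of -0.00064, -0.015 and 0.071 in Cd79a+, Cd3e+Cd4+ and Cd3e+Cd8a+ cells, with none past 0.5 in either direction. Of the genes led by interferon gamma with 50 UMIs, 1 of 5 was at or below -0.5 in Cd79a+, 2 of 4 in Cd3e+Cd4+ and 0 of 5 in Cd3e+Cd8a+ cells, with medians of 0.042, -0.43 and -0.32. The chemokine gene Cxcl10 was at or above 0.5 in Cd3e+Cd8a+ cells, with 23 UMIs without and 75 with butyrate, 1.47 (0.78 to 2.21), 22 of the latter in 1 cell. Gbp2 had -0.48 (-0.82 to -0.15), -0.63 (-0.91 to -0.36) and -0.49 (-0.67 to -0.32) in the order Cd79a+, Cd3e+Cd4+ and Cd3e+Cd8a+ cells, and Irgm1 -0.58 (-0.74 to -0.41), -0.53 (-0.79 to -0.28) and -0.33 (-0.49 to -0.16). Ciita, which drives MHC class II genes, was higher in Cd79a+ cells, with 257 CPM without and 303 CPM with butyrate and a ratio of 0.24 (0.18 to 0.29). Immediate early and heat shock genes, which respond to handling, also differed between the libraries. Their 14 genes had a median of 0.23 in Cd79a+ cells, with 3 at or above 0.5, and medians of -0.21 and -0.21 over 13 genes each in Cd3e+Cd4+ and Cd3e+Cd8a+ cells, with 1 and 0. Their part in the values of the members was not tested.

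**Figure D5:**
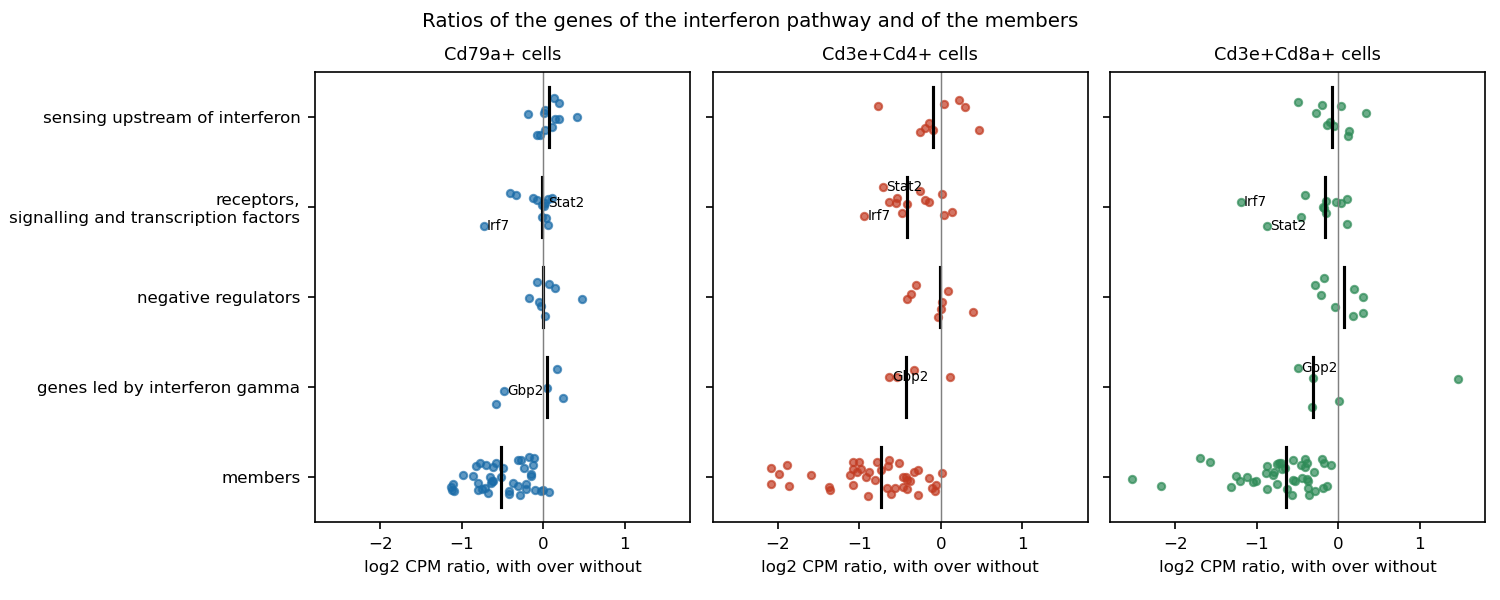
The log2 CPM ratio with over without butyrate (x axis) of genes with at least 50 UMIs, by list (rows), in 3 lineages; each point is a gene and the black bar is the median of the list. The members lie farthest to the left in each lineage, with Irf7 and Stat2 standing out among the transcription factors of the T lineages.

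Cell classes with few cells gave coarser values. In the Lyz2+ cells 11 members had at least 50 UMIs, 9 of them were at or below -0.5 (all genes: 19.8%) and 0 at or above 0.5 (12.0%), with a median of -1.14. The sum of the members stood at 4760.4 CPM without and 2063 CPM with butyrate, a ratio of -1.21 (-1.34 to -1.08), or -1.14 (-1.30 to -0.99) without Ifi27l2a and Shisa5. The count rests on few UMIs: thinning to 2000 UMIs or a minimum of 200 UMIs left 1 member at or below -0.5, and no minimum with a pseudocount of 10 CPM gave 33. For these settings too the share of all genes is not given. Ifi27l2a stood at 1343 CPM without and 421 CPM with butyrate, -1.67 (-1.95 to -1.40), Bst2 at 438 CPM without and 182 CPM with butyrate, -1.27 (-1.72 to -0.83), and Parp14, with 49 and 16 UMIs, had the lowest ratio, -1.78 (-2.70 to -0.94). Isg15 had -1.49 (-2.21 to -0.81), Lgals3bp -1.08 (-1.56 to -0.61) and Rnf213 -1.36 (-2.24 to -0.52), which turned to 0.68 when cells were thinned to 2000 UMIs. The ratios nearest 0 were those of Shisa5, -0.30 (-0.78 to 0.18), Epsti1, -0.48 (-1.15 to 0.17), and Zbp1, -0.64 (-1.42 to 0.13). When these cells were counted among the lineages, 25 members had their highest CPM in them without and 16 with butyrate. These counts also rest on few UMIs, since 31 of the 42 members had under 50 UMIs in the Lyz2+ cells. The interval of the log2 ratio of Lyz2+ over Cd79a+ CPM lay above 0 in both libraries for 12 members and below 0 in both for 3. The share of all genes is not given for these counts. The chemokine genes Cxcl9 and Cxcl10 were at 198 CPM without and 11.5 CPM with butyrate and 328 CPM without and 11.5 CPM with butyrate in these cells, but 1 cell held 40 of the 61 Cxcl9 UMIs and 1 cell 39 of the 101 Cxcl10 UMIs without butyrate. Since 35 and 29 cells of mixed kind stand behind the values, a difference in which cells were caught cannot be told apart from a difference in level.

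The 7 Siglech+ cells without and 14 with butyrate, of which 100% and 92.9% had Tcf4 as plasmacytoid dendritic cells do, had the highest Bst2, a surface marker of that cell type, of the classes. Bst2 stood at 3774 CPM without and 4202 CPM with butyrate there, 0.16 (-0.054 to 0.37), while Ifi27l2a stood at 2472 CPM without and 658 CPM with butyrate, -1.91 (-2.27 to -1.55). None of the 21 interferon genes had a UMI in these cells. The 15 and 30 Ncr1+ cells, which carry a natural killer cell receptor gene, had a ratio of the members' sum of -0.19 (-0.41 to 0.045). The plasma-like cells, 39 without and 10 with butyrate, had Isg20 at 348 CPM without and 188 CPM with butyrate, -0.89 (-1.28 to -0.51). Bst2 stood there at 639 CPM without and 221 CPM with butyrate, -1.53 (-1.89 to -1.20). Sp100 stood at 48.6 CPM without and 116 CPM with butyrate, 1.26 (0.63 to 1.87). In plasma-like cells the median ratio of all genes with 50 UMIs was itself 0.34, and that of the immediate early and heat shock genes -1.57. A difference in which plasma-like cells were caught cannot be told apart from a difference in level. Among Cd3e+Cd4+ cells, the 94 and 85 Foxp3+ cells had Ifi27l2a at 2494 CPM without and 1266 CPM with butyrate, -0.98 (-1.08 to -0.88), and Bst2 at 262 CPM without and 132 CPM with butyrate, -0.99 (-1.31 to -0.67). In the 40 and 40 S100a4+ cells without Foxp3, Ifi27l2a reached 4043 CPM without and 1350 CPM with butyrate, -1.58 (-1.72 to -1.44), although the median of the 15 members with 50 UMIs was -0.052. The members' sum had a ratio of -0.35 (-0.37 to -0.33) in Ighd+ Cd79a+ cells and of -0.38 (-0.45 to -0.30) in Ighd- Cd79a+ cells.

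The ratios were last set beside the promoter sequences. In Cd3e+Cd4+ cells the 16 members with an ISRE core had a median ratio of -0.80 and the 16 with a window but no core -0.57. In Cd3e+Cd8a+ cells the medians were -0.76 and -0.54. In Cd79a+ cells they were -0.44 over 16 members with a core and -0.49 over 15 without one. For the longer form, the medians with and without it were -0.71 (10 members) and -0.70 (22 members) in Cd3e+Cd4+ cells. They were -0.67 (10) and -0.67 (22) in Cd3e+Cd8a+ cells and -0.44 (10) and -0.49 (21) in Cd79a+ cells. Members with no window had medians of -0.89 (9), -0.56 (10) and -0.68 (10) in the same order of lineages. The gap of the T lineages was thus nearly absent with the longer form. No spread is given for these medians, and their differences were not tested. Among members with at least 50 UMIs in Cd79a+ cells, Ddx60, with 2 cores in its window, had the highest ratio, 0.067 (-0.33 to 0.46). Oasl2, with none, had the lowest. These 2 members are named for their ratios and say nothing about the core. The other genes were not chosen for the contrast. Of these, 11.0% of the 281 with a core and 3.68% of the 6771 without one were at or below -0.5 in Cd3e+Cd4+ cells, against 6.44% and 2.75% in Cd79a+ and 5.99% and 2% in Cd3e+Cd8a+ cells. In the other direction, at or above 0.5, the shares with and without a core were 2.14% and 2.54% in Cd3e+Cd4+, 1.02% and 1.48% in Cd79a+ and 2.46% and 2.07% in Cd3e+Cd8a+ cells. A match in a window is a description of its letters and not of binding.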

How the data were processed

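Total cells of MedLNs were captured with 10x Genomics Chromium 3′ chemistry, and the deposited files hold raw UMI counts per gene and cell that the authors made with Cell Ranger 6.0.1, as the methods say, on mm10, as the submitters' processing notes say. They held 9681 cell barcodes without and 8932 with butyrate (59176459 and 58381292 UMIs). The filter on quality kept cells of at most 10% mitochondrial UMIs and at least 200 genes, and dropped 186 and 327. Likely doublets, ranked by Scrublet, were then dropped at a rate of 0.8% per 1000 cells (721 and 592). The setting of the doublet removal was chosen here. Cd79a+ and Lyz2+ cells needed 3 UMIs of the marker and the other lineages 1 UMI, and cells with too few marker UMIs or markers of several lineages were left unassigned (1954 and 1479).

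UMIs were summed per lineage and library and scaled to CPM, with no pseudocount and with 3 counts in place of 0. A gene was given a call when it had 50 UMIs over both libraries, at a log2 ratio of -0.5 or 0.5. Ratios carry exact conditional binomial 95% intervals. Differences of ratios between lineages, and sums without Ifi27l2a and Shisa5, carry 95% intervals from a normal approximation to the counts instead. All of these cover counting error only, as do the intervals on shares of cells. With 1 library per condition there was no test and no p-value. The scripts were tested on simulated counts. Analyses used Python 3.11.15, numpy 2.4.6, pandas 2.3.3, scipy 1.17.1 and scanpy 1.11.5.

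The members and the gene lists were chosen with earlier results of these data known. All 42 members are covered, and those with the 5 highest levels, the 5 lowest or the 3 highest ratios in a lineage were named with values. The alternatives tried were other filters, lineage rules, scalings, thinning, pseudocounts, UMI minimums, correlation settings and a longer motif. Promoter windows came from RefSeq (GRCm38.p6), which gave none for 10 members, and gene positions from GENCODE M21, whose build GRCm38 is that of the files. A few genes of the lists are not reported here.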

Additional observations from a re-analysis of the deposited data

How the results depend on the processing

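Of 343 values recomputed under alternatives for 62 results, 294 stayed within the spread set for them, 48 moved and 1 reversed, and the 96 recomputed sums and medians of ratios were all below 0. In Cd79a+ cells the sum (-0.35) became -0.37 without doublet removal and without any filter on cells, and -0.38 with at most 5% mitochondrial UMIs, with a scale that left out ribosomal, mitochondrial and immunoglobulin genes, and with median-of-ratios scaling. The same reduced scale gave -0.60 in Cd3e+Cd4+ cells. In Cd3e+Cd8a+ cells the sum was -0.51 with lineages from 1 UMI and -0.54 after thinning, and in Lyz2+ cells -1.44 with lineages from 1 UMI and -0.88 as the mean of per-cell CPM. A pseudocount of 10 CPM, with or without the UMI minimum, brought the members at or below -0.5 to 5 in Cd79a+ and 14 in Cd3e+Cd8a+ cells and the medians to -0.25 and -0.37, since it pulls low genes towards 0. A minimum of 200 UMIs, which tests fewer genes, left 16 in Cd3e+Cd4+ and 1 in Lyz2+ cells. Thinning left 1 in Lyz2+ cells, and no minimum with the pseudocount gave 33. Shares of all genes under these alternatives are not given, so the counts cannot be set beside the shares of the main setting. Rnf213 in Lyz2+ cells reversed to 0.68 after thinning, and Tor3a in Cd3e+Cd4+ cells went to 0.61. The median correlation moved with depth: without butyrate it was 0.122 at 1000 UMIs and 0.264 unthinned per 10000 in Cd79a+ cells, 0.155 and 0.321 in Cd3e+Cd4+ cells, and 0.130 and 0.331 in Cd3e+Cd8a+ cells. With butyrate it was 0.114 and 0.232 in Cd79a+ cells, and 0.198 and 0.279 unthinned in Cd3e+Cd4+ and Cd3e+Cd8a+ cells. As Spearman's rho it was 0.150 and 0.125 in Cd79a+ cells without and with butyrate. The longer motif was in 31.2% of members. Where no cause is given, the cause was not tested. Leaving out the 25 barcodes found in both libraries, an alternative chosen after seeing the data, moved no sum, count or median past that spread. No paired analysis was possible because each condition is 1 library and no result comes from a test. Members under 50 UMIs in a lineage could not be placed at this depth.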
